A study of Homo sapiens with 6 samples.

Results

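The 5 genes of the Rel family, RELA, RELB, REL, NFKB1 and NFKB2, encode the subunits of the transcription factor NF-κB. They were found by their platform symbols among the probe sets that the annotation assigns to a single gene. This gave 8 probe sets of 44988 in all, 3 for RELA, 2 for REL and 1 each for RELB, NFKB1 and NFKB2. Total RNA was hybridised to Affymetrix expression arrays, 3 from cells labelled CSF3 and 3 from cells labelled control (Ctrl). All 6 samples are labelled HCT116, an established cell line from a human colorectal carcinoma, with colon as the tissue, and were grown in RPMI-1640 medium with serum and antibiotics. CSF3 is the cytokine granulocyte colony-stimulating factor. The labels do not say whether it was added as a protein, expressed by the cells or reduced in them, nor for how long. Nor do they give the origin of the replicates, which may be aliquots of one culture, and the p-values then reflect no more than the technical spread. Since the series title refers to p65 and NF-κB signalling, the comparison asks how the RNA of p65 and its partners differed between the groups.

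NF-κB is a dimer of Rel proteins. RELA (p65), RELB and REL (c-Rel) carry transactivation domains, while NFKB1 and NFKB2 encode the precursors p105 and p100, which are processed to the DNA-binding subunits p50 and p52. In the canonical pathway, IκB proteins hold dimers such as p65 with p50 in the cytoplasm until the IKK kinases mark IκB for destruction. In the alternative pathway, the kinase NIK and IKKα drive the processing of p100, which releases dimers of RELB with p52. Activation of p65 takes place largely on the protein, through its release, its move to the nucleus and its phosphorylation, none of which arrays measure. The genes of several subunits, among them NFKB1, NFKB2, RELB and REL, are themselves known targets of NF-κB.

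RELB and NFKB2 rose on the CSF3 arrays, NFKB1 fell, and neither probe set of REL passed the threshold of the test. The probe sets of RELA were divided: 2 fell, and the brightest, the one with the highest mean, did not pass. In RNA of whole cultures, fewer expressing cells and less RNA per cell cannot be told apart. Of the 8 probe sets, 2 rose and 3 fell at a limma adjusted p under 0.05. Of all 44988 single-gene probe sets, 36.7% rose and 28.8% fell, 65.5% in either direction, so the share of called NF-κB probe sets was near that of the arrays as a whole. The groups did not overlap for 5 of the 8, against 70.8% of all probe sets.

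Arrays of one group were closely alike, with Pearson's r of 0.994 to 0.995 between CSF3 arrays, 0.998 between Ctrl arrays and 0.970 to 0.974 between the groups. The distributions differed, with a lower quartile of 2.40 to 2.43 on CSF3 and 2.18 to 2.19 on Ctrl arrays. The median change of all single-gene probe sets was 0.10 on the log2 scale as deposited, 0.04 after quantile normalization and 0.01 after cyclic loess normalization. The 18 hybridisation control probe sets, for bacterial and phage transcripts, had a median of 8.36 ± 0.05 on CSF3 and 6.82 ± 0.07 on Ctrl arrays (SD, n = 3; exact two-sided permutation p = 0.1, the smallest that 3 against 3 arrays allow). The median of the 24 poly-A control probe sets was 5.61 ± 0.03 on CSF3 and 4.09 ± 0.25 on Ctrl arrays (SD, n = 3, exact two-sided permutation p = 0.1). The descriptions carry one code on the CSF3 and another on the Ctrl arrays without saying what it stands for, so what the code marks and the group cannot be told apart. Of the 7 colon epithelial markers, 3 were called higher and 2 lower. KRT8 fell, with 5.06 ± 0.17 on CSF3 and 6.37 ± 0.05 on Ctrl arrays, while KRT18 read 7.48 ± 0.06 on CSF3 and 7.26 ± 0.01 on Ctrl arrays, and CDX2 read 4.79 ± 0.02 on CSF3 and 4.45 ± 0.05 on Ctrl arrays. KRT19 (3.07 ± 0.22 on CSF3, 2.61 ± 0.12 on Ctrl arrays), VIL1 (1.70 ± 0.30 on CSF3, 1.43 ± 0.19 on Ctrl arrays), EPCAM (3.30 ± 0.10 on CSF3, 3.63 ± 0.05 on Ctrl arrays) and CDH1 (2.24 ± 0.04 on CSF3, 2.20 ± 0.09 on Ctrl arrays) were dim in both groups (SD, n = 3). The 6 fibroblast, 5 leukocyte and 3 endothelial markers measured had group means from 1.18 to 4.41, and 12 of these 14 were called higher on the CSF3 arrays, against 45.4% of all genes. Dim probe sets read higher on the CSF3 arrays in general: the median change was 0.23 below the median level of all probe sets and -0.16 above it. The part of these differences in the results below was not tested.

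Promoter sequence was at hand for 4 of the 5 genes, in 8 windows from RefSeq on GRCh38.p14, each reaching from 250 bases before to 50 bases after an annotated transcription start. The κB consensus, the 10-base site that Rel dimers bind, was searched on both strands. It was present in 4 of the 8 windows: the 1 of REL, 1 of 2 of NFKB1 and 2 of 3 of NFKB2, but neither of the 2 of RELA. Of 35116 promoter windows of the same length, 11.3% hold it. The stretches below are shown because these subunit genes are known targets of the factor they encode, and because their RNA did not move alike. Each ends before the transcription start, and the capitals mark the matches. A run of 11 capitals holds a pair of overlapping matches. For NFKB2, upstream and downstream refer to the 2 windows with matches, since its most upstream window, at the start 102394110, held none.
REL, chr2:60881487-60881573, plus strand: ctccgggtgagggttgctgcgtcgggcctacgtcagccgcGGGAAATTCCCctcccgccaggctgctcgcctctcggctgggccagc
NFKB1, chr4:102501270-102501358, plus strand: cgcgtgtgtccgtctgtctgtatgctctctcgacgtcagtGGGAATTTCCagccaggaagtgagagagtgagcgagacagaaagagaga
NFKB2 upstream window, chr10:102394431-102394549, plus strand: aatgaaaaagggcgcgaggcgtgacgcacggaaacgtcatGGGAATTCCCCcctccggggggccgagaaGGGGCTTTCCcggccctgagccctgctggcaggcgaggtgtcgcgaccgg
NFKB2 downstream window, chr10:102395489-102395704, plus strand: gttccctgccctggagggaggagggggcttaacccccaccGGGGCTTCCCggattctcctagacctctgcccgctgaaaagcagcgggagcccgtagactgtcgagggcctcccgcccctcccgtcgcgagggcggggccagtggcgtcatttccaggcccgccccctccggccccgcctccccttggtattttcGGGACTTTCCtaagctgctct
In NFKB1 the match GGGAATTTCC lay 49 to 40 bases before the start, and 0.145% of all windows hold these 10 letters on either strand. In REL the overlapping matches GGGAAATTCC and GGAAATTCCC lay 47 to 37 bases before the start. The upstream window of NFKB2 held GGGAATTCCC, which reads the same on both strands, overlapping with GGAATTCCCC, and then GGGGCTTTCC. The downstream window held GGGGCTTCCC and, 21 to 12 bases before the start, GGGACTTTCC, a sequence in 0.191% of all windows. These are matches of letters, and binding was not measured.

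RELA encodes p65, the main transactivating subunit of the canonical pathway, on chromosome 11 at 65653601 to 65663857 of GRCh38.p14. Its brightest probe set, 11745440_s_at, read 7.20, 7.17 and 7.23 on the CSF3 arrays, against 7.15, 7.16 and 7.18 on the Ctrl arrays (log2 signal). The groups overlapped within a narrow range, and the change of 0.04 ± 0.05 (SE) did not pass the threshold (limma adjusted p = 0.530, 95% confidence interval -0.09 to 0.17). The suffix _s_at marks probe sets that can hybridise with more than 1 transcript. After quantile or cyclic loess normalization the same probe set was called higher, by 0.25 ± 0.05 and by 0.26 ± 0.05 (limma adjusted p = 0.00544 and 0.00469).

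The other probe sets of RELA fell. Probe set 11718104_x_at read 4.46, 4.34 and 4.40 on the CSF3 arrays, against 4.83, 4.98 and 5.004 on the Ctrl arrays. Every CSF3 array lay below every Ctrl array, with a log2 change of -0.54 ± 0.07 (limma adjusted p = 0.000429), or 1.46-fold lower. Probe set 11718103_a_at read 3.58, 3.87 and 3.83 on the CSF3 arrays, against 4.40, 4.66 and 4.67 on the Ctrl arrays. Again the groups did not overlap, and the change was -0.82 ± 0.11 (limma adjusted p = 0.000434), or 1.76-fold lower. Both falls passed the test under all 13 other settings that set no minimum size of change. The platform annotation gives one transcript record for both of these probe sets and another record for the brightest one, so the 2 falls are not independent readings of the gene. The suffix _x_at marks probe sets with probes that can match other sequences as well.

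**Figure D1:**
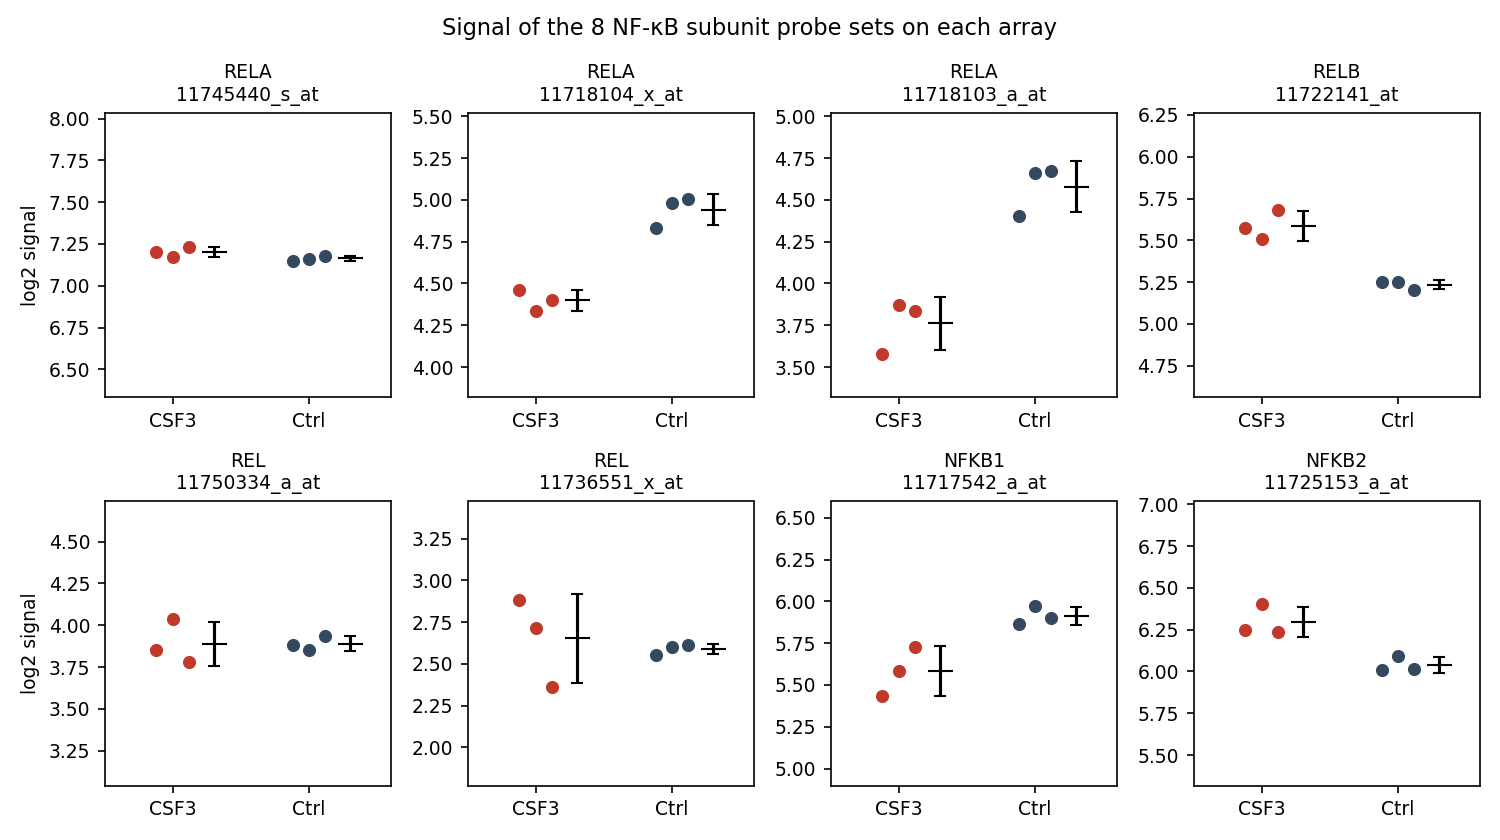
Log2 signal of each of the 8 probe sets of the NF-κB subunits on the 3 CSF3 arrays (red, left) and the 3 Ctrl arrays (dark, right); points are arrays, the bar beside them is mean ± SD, and every panel spans the same log2 range around its own centre. The groups are apart for 5 probe sets (RELA 11718104_x_at and 11718103_a_at, RELB, NFKB1 and NFKB2) and overlap for RELA 11745440_s_at and both probe sets of REL.

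Probe sets of one gene were then compared within each array, where any scaling that is equal for all probe sets of an array cancels. The difference of RELA 11718103_a_at minus 11745440_s_at was -3.63, -3.30 and -3.40 on the CSF3 arrays, against -2.74, -2.50 and -2.51 on the Ctrl arrays. The gap was thus wider on every CSF3 array, by -0.86 ± 0.12 (limma adjusted p = 0.00127 over 26856 such differences). For 11718104_x_at minus 11745440_s_at it was -2.75, -2.83 and -2.83 on the CSF3 arrays, against -2.32, -2.18 and -2.17 on the Ctrl arrays. This gap was wider on every CSF3 array too, by -0.58 ± 0.08 (limma adjusted p = 0.00127). Of all such differences, 41% passed the test, 22.3% with the dimmer probe set lower relative to the brightest and 18.7% with it higher, so unequal probe sets were common on these arrays. The difference of the 2 dimmer probe sets, 11718103_a_at minus 11718104_x_at, averaged -0.64 ± 0.22 on the CSF3 and -0.36 ± 0.06 on the Ctrl arrays (SD, n = 3) and was not tested. The gap between the 3′ and 5′ probe sets of GAPDH, often read as a sign of RNA integrity, was 0.682 ± 0.003 on CSF3 and 0.306 ± 0.007 on Ctrl arrays, and that of ACTB 1.94 ± 0.02 on CSF3 and 1.34 ± 0.03 on Ctrl arrays (SD, n = 3). The part of these gaps in the RELA result was not tested.

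**Figure D2:**
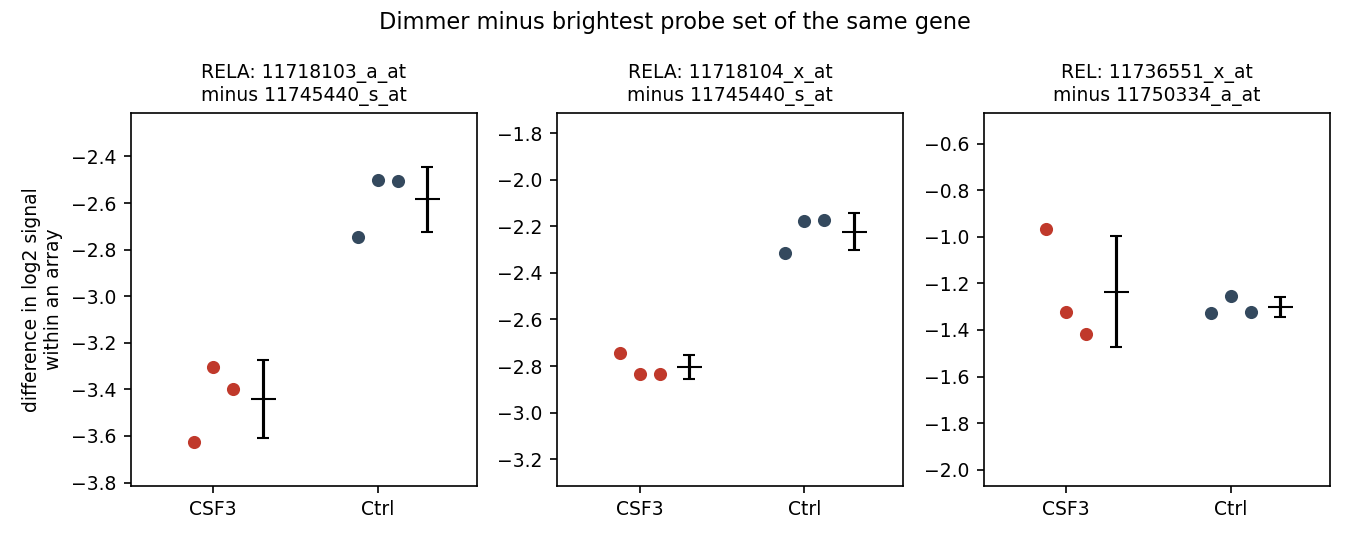
Difference in log2 signal between a dimmer probe set and the brightest probe set of the same gene, within each of the 3 CSF3 arrays (red, left) and 3 Ctrl arrays (dark, right), with mean ± SD beside the points. Both RELA differences are lower on every CSF3 array, by -0.86 and -0.58, while the REL difference overlaps between the groups.

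REL encodes c-Rel, a subunit best known from lymphocytes, on chromosome 2 at 60881574 to 60931612. Probe set 11750334_a_at read 3.85, 4.04 and 3.78 on the CSF3 arrays, against 3.88, 3.85 and 3.94 on the Ctrl arrays. The CSF3 arrays lay on both sides of the Ctrl arrays, and the means were 3.89 ± 0.13 on CSF3 and 3.89 ± 0.04 on Ctrl arrays (SD, n = 3; 95% confidence interval of the log2 change -0.18 to 0.18). Probe set 11736551_x_at read 2.88, 2.71 and 2.36 on the CSF3 arrays, against 2.55, 2.60 and 2.61 on the Ctrl arrays. The CSF3 arrays were again spread around the Ctrl arrays, and the change was 0.06 ± 0.12 (limma adjusted p = 0.659). Its spread was wide on the CSF3 arrays, with an SD of 0.27 on CSF3 and 0.03 on Ctrl arrays. CSF3 replicate 3 was its lowest array, and without it the change was 0.21 (limma adjusted p = 0.0441). With quantile and cyclic loess normalization it was -0.14 and -0.16, neither past the threshold, so the sign for this probe set is not settled. The change of the 2 probe sets of REL differed by 0.06 ± 0.12 (limma adjusted p = 0.711, over all within-gene differences).

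NFKB1, which encodes p105 and p50, lies on chromosome 4 at 102501359 to 102617302. Its probe set 11717542_a_at read 5.43, 5.59 and 5.73 on the CSF3 arrays, against 5.87, 5.97 and 5.90 on the Ctrl arrays. Every CSF3 array was below every Ctrl array, the CSF3 arrays were more spread (SD 0.15 on CSF3, 0.05 on Ctrl arrays), and the fall was 1.26-fold (log2 change -0.33 ± 0.08, limma adjusted p = 0.0105). The call was lost after quantile normalization (-0.07 ± 0.09, limma adjusted p = 0.554) and after cyclic loess normalization (-0.11 ± 0.09, limma adjusted p = 0.317).

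NFKB2, which encodes p100 and p52 of the alternative pathway, lies on chromosome 10 at 102394110 to 102402529. Its probe set 11725153_a_at read 6.25, 6.40 and 6.24 on the CSF3 arrays, against 6.01, 6.09 and 6.02 on the Ctrl arrays. The groups did not overlap, and the rise was 1.20-fold (log2 change 0.26 ± 0.07, limma adjusted p = 0.0118). It was larger after quantile and cyclic loess normalization, at 0.52 ± 0.07 and 0.49 ± 0.07 (limma adjusted p = 0.000686 and 0.000928).

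RELB, the usual partner of p52, lies on chromosome 19 at 45001464 to 45038192. Its probe set 11722141_at read 5.57, 5.51 and 5.68 on the CSF3 arrays, against 5.25, 5.25 and 5.21 on the Ctrl arrays. All CSF3 arrays were above all Ctrl arrays, and the rise was 1.28-fold (log2 change 0.35 ± 0.07, limma adjusted p = 0.00243). With quantile and cyclic loess normalization it was 0.59 ± 0.06 and 0.55 ± 0.06 (limma adjusted p = 0.000252 and 0.000308). RELB and NFKB2 passed the test, with a rise, under the same 13 settings, yet neither reached a 2-fold change, which 4.96% of all probe sets did with a limma adjusted p under 0.05. RELB ranked at percentile 76.9 and NFKB2 at percentile 66.8 of the changes of all probe sets, against percentile 44.3 for RELA 11745440_s_at and 23.4 for NFKB1.

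**Figure D3:**
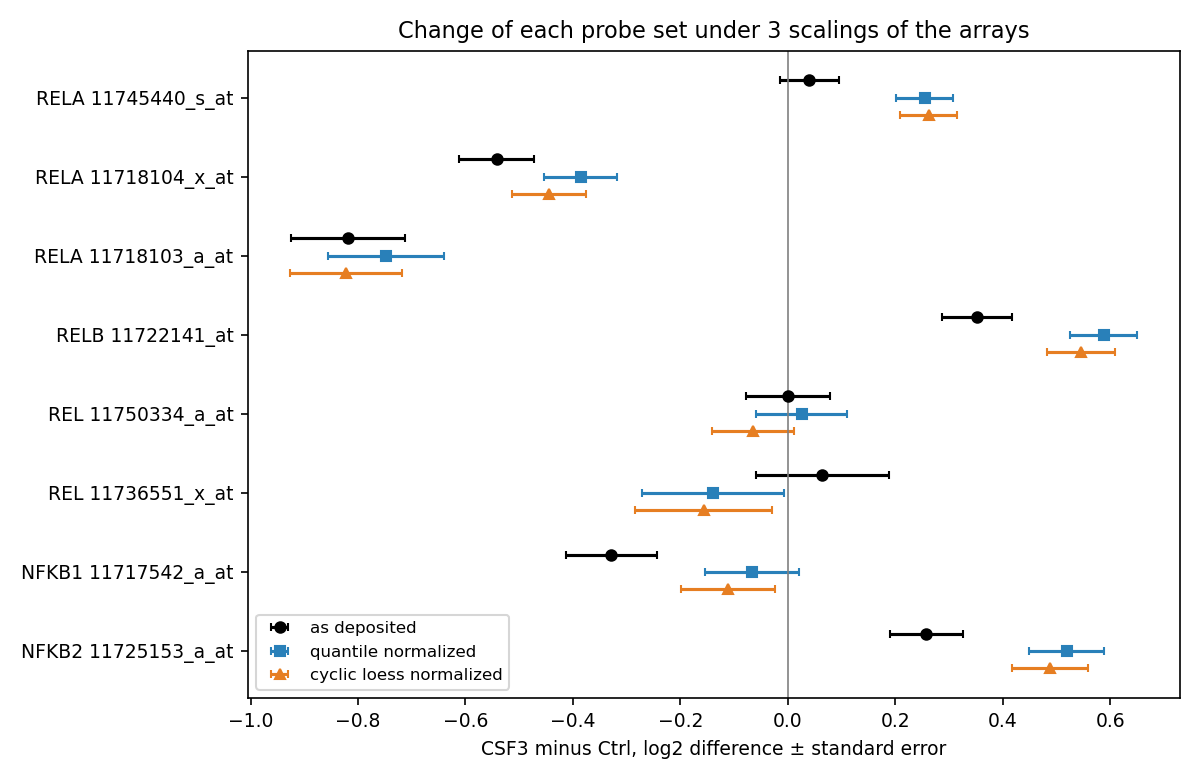
Change of each probe set, CSF3 minus Ctrl, as log2 difference ± standard error (n = 3 arrays a group), for the values as deposited (circles), after quantile normalization (squares) and after cyclic loess normalization (triangles). RELB and NFKB2 lie right of 0 and the 2 dimmer RELA probe sets left of 0 under each scaling, while RELA 11745440_s_at moves to 0.25 and 0.26 and NFKB1 to -0.07 and -0.11 when the arrays are rescaled.

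The changes of the members were set against each other as differences between their brightest probe sets within an array, over the 10 pairs. With the deposited values, the CSF3 and Ctrl arrays did not overlap in 8 pairs and the exact two-sided permutation p was 0.1, the smallest possible with 3 against 3 arrays (0.125 adjusted over the 10 pairs), so no pair could pass a threshold of 0.05. The share over pairs of other genes was not computed, and 70.8% of all probe sets did not overlap between the groups. The count of 8 pairs is therefore not read as particular to these genes. RELB minus NFKB1 shifted by 0.68 on the log2 scale, with mean differences of 0.0048 ± 0.12 on CSF3 and -0.68 ± 0.05 on Ctrl arrays (SD, n = 3). NFKB2 minus NFKB1, the precursor genes of the alternative and the canonical pathway, shifted by 0.59, with mean differences of 0.71 ± 0.18 on CSF3 and 0.13 ± 0.01 on Ctrl arrays (SD, n = 3). RELB minus RELA shifted by 0.31 and NFKB2 minus RELA by 0.22. The pairs that overlapped were RELB with NFKB2, at 0.09 (exact permutation p = 0.5), and RELA with REL, at 0.04 (exact permutation p = 0.7). Pairs with REL depended on the scaling: after quantile and cyclic loess normalization RELA minus REL shifted by 0.23 and 0.33, RELB minus REL by 0.56 and 0.61 against 0.35 as deposited, NFKB2 minus REL by 0.49 and 0.55 against 0.26, and REL minus NFKB1 by 0.09 and 0.05 against 0.33. With each gene's probe sets averaged, an alternative added after seeing the data, RELB minus RELA shifted by 0.79, NFKB2 minus RELA by 0.70, RELA minus REL by -0.47 and RELA minus NFKB1 by -0.11 against 0.37 with the brightest.

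Genes most like each member were sought as those whose brightest probe set had the smallest root mean square difference from the member's, after each gene's mean over the 6 arrays was removed, among 18131 other genes. Nearest to RELA were SAE1, EPHA2 and ERBB2, with differences of 0.014 to 0.016 on the log2 scale, and 2984 genes lay within 0.1 of it. For NFKB1 they were LYRM9, IFI6 and GPS1, at 0.032 to 0.034, and 446 genes lay within 0.1. For RELB they were LOC102724929, TAL2 and TWIST1 (0.024 to 0.026), for NFKB2 LINC01879, TIAM2 and FAM227A (0.019 to 0.022), and for REL TTC22, GRP and SETDB2 (0.022 to 0.028). The genes nearest to RELB and NFKB2 were dim, with group means of 1.47 to 2.67 and 1.38 to 2.40, and may not be expressed. Dim probe sets read higher on the CSF3 arrays in general, and the part of that shift in these likenesses was not tested. The median difference over all genes was 0.18 to 0.30, so over 6 arrays in 2 groups many genes share a profile with each member.

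The genes around the subunits were taken from 9 lists and counted with their brightest probe set, where 45.4% of 18132 genes rose, 27.1% fell, 72.5% changed in either direction and the median change was 0.16. Over all lists together, 29 of 90 genes were higher and 30 lower, or 34 and 23 after quantile normalization, where 39.2% of all genes were higher and 20.1% lower. Of the genes of IκB proteins 5 of 6 rose, with a median of 0.89. NFKBIA, which encodes IκBα, read 9.11 ± 0.06 on CSF3 and 7.13 ± 0.01 on Ctrl arrays (SD, n = 3; log2 change 1.99 ± 0.05, limma adjusted p = 7.89e-06), and NFKBIE, which encodes IκBε, rose by 0.96 ± 0.05. Feedback inhibitors went both ways, with 3 of 8 higher and 1 lower. Among them TNFAIP3, which encodes A20, rose by 1.45 ± 0.08, and N4BP1 fell by 0.63 ± 0.08, with -0.02 on its other probe set. After quantile normalization 5 of these feedback inhibitors were higher and 1 lower, and with each gene's probe sets averaged 2 were higher and 5 lower.

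Genes that signal to the subunits in the canonical pathway were mostly lower: 8 of 11 fell and 1 rose, with a median of -0.36. MAP3K7, the kinase TAK1, fell by 1.07 ± 0.07, and TAB2, its adaptor, fell by 0.69 ± 0.07, although another probe set of TAB2 changed by 0.34. Among IKK and related kinases 2 of 5 fell and 1 rose: CHUK, which encodes IKKα, fell by 0.63 ± 0.10, and TBK1 fell by 0.47 ± 0.05. The alternative pathway, the one RELB and NFKB2 act in, had 2 of 8 higher and 2 lower, with a median of -0.04. MAP3K14, which encodes NIK, rose by 0.42 ± 0.06, and TRAF3, whose protein keeps NIK low, fell by 0.87 ± 0.07. After quantile normalization the canonical list had 5 lower and 1 higher.

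Genes that act on the subunit proteins were also more often lower than higher as deposited. In the list for precursor processing and IκB ubiquitination 5 of 9 fell and the other 4 did not pass. CUL1, the scaffold of the ubiquitin ligase that marks IκB, fell by 0.83 ± 0.05, and FBXW11, a substrate receptor of that ligase, fell by 0.70 ± 0.06. Among modifiers and coregulators of p65, 6 of 14 fell and 1 rose as deposited, but 5 fell and 5 rose after quantile normalization, against the 20.1% and 39.2% of all genes under that scaling. GSK3B, a kinase, fell by 1.06 ± 0.05, with 0.31 on its other probe set, and SETD7, a lysine methyltransferase, fell by 1.09 ± 0.07, with -0.03 on its other probe set. In the list for nuclear transport 3 of 4 fell, among them the importin genes KPNA3 and KPNB1, by 0.52 ± 0.05 and 0.42 ± 0.05. The target list went the other way, with 16 of 25 higher, 3 lower and a median of 0.39, or 13 higher and 1 lower after quantile normalization. Without the 30% dimmest genes, 11 were higher and 2 lower in this list, against 4767 and 4883 of all genes. How many list genes were left was not counted, so these numbers cannot be compared as shares. Group means in the list ran from 1.64 for CCL2 on Ctrl arrays to 9.15 for BCL2A1 on CSF3 arrays. Dim probe sets read higher on the CSF3 arrays in general, and the part of that shift in these counts was not tested. IRF1, an interferon regulatory factor, rose by 1.59 ± 0.08, and CXCL2, a neutrophil-attracting chemokine, rose by 1.44 ± 0.08. Besides NFKBIA, 17 genes were named as the 2 called genes with the smallest p of their list, and their limma adjusted p was at most 0.00114. CCL2 and BCL2A1, named only as the ends of a range, are not among them.

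**Figure D4:**
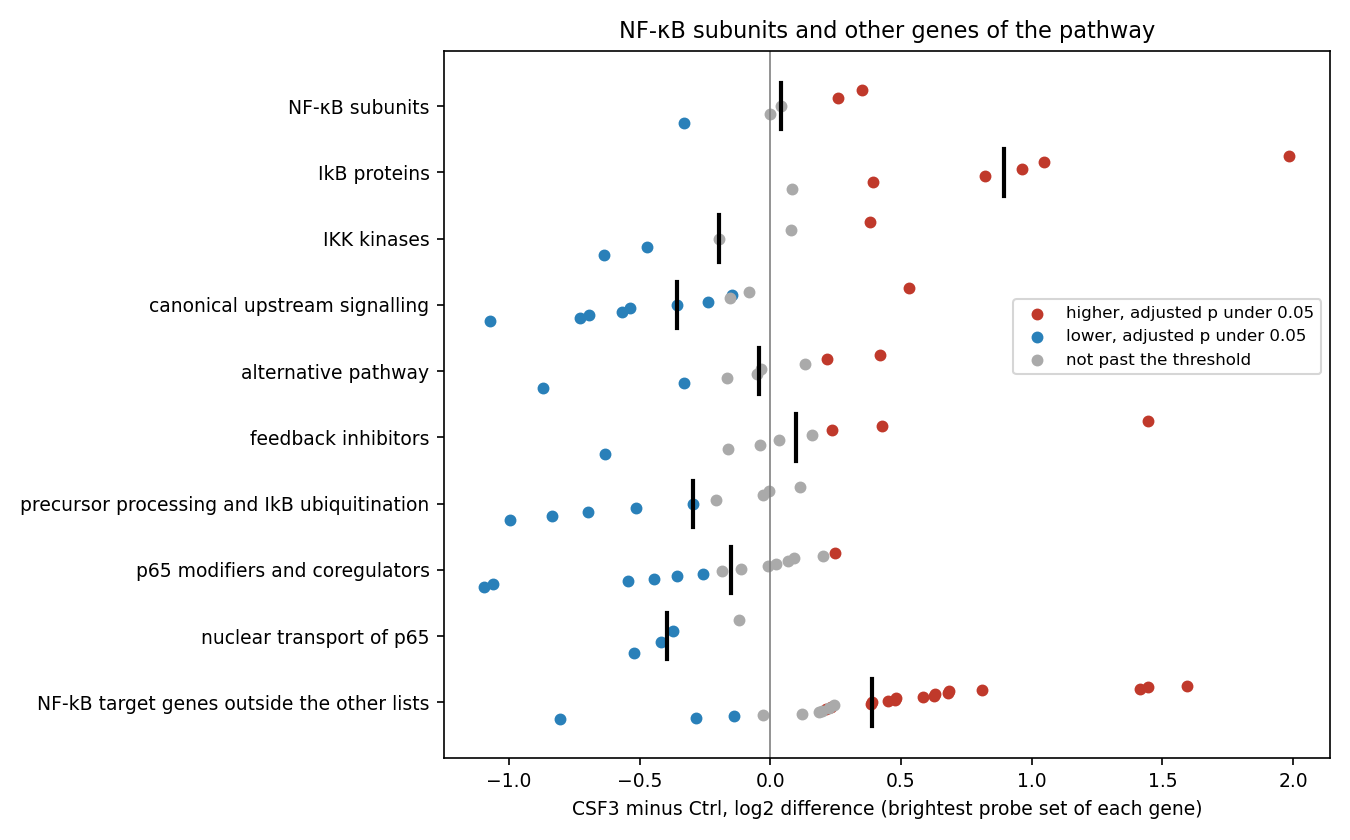
Log2 change, CSF3 minus Ctrl, of the brightest probe set of each of the 5 NF-κB subunit genes and of 90 other genes of the pathway in 9 lists; red points are higher and blue points lower at a limma adjusted p under 0.05, grey points did not pass, and the black bar is the list's median. With these probe sets the subunits lie between -0.33 and 0.35, the IκB proteins between 0.08 and 1.99 and the target genes between -0.80 and 1.59. The 2 dimmer RELA probe sets, at -0.54 and -0.82, are not drawn.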

How the data were processed

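The table the authors deposited gives log2 values of 49395 probe sets on 6 arrays. The unit was read from the values (0.81 to 12.7); how background, summarisation and scaling were handled is not given in the sources used here. Without detection calls, dim genes may or may not be expressed, and the number of arrays limits the precision. If the logarithm had another base, the folds would change and the tests would not. Of the probe sets, 44988 have 1 gene in the platform annotation and were used; 1832 with several genes, 102 array controls and those without a gene were left out. CSF3 minus Ctrl was fitted by limma 3.58.1 (lmFit, eBayes; R 4.3.3) on all 44988 probe sets, on the brightest probe set of each of 18132 genes, and on 26856 differences between a dimmer and the brightest probe set of a gene, with no filter or covariate. P-values were two-sided and adjusted by Benjamini and Hochberg's method over each whole table (threshold 0.05). Fits were tested on simulated data. The members, lists and alternatives were chosen with earlier results of these data known. The text names each member with every probe set, NFKBIA, the 2 called genes with the smallest p of each list and the 3 genes nearest to each member. CCL2 and BCL2A1 are named as the ends of the range of group means in the target list. Of the list genes, 6 were not analysed here. Alternatives were quantile, median and cyclic loess scaling, leaving out the 30% dimmest, trend and robust variance estimates, a replicate block, array quality weights, a minimum log2 change of 1, the mean of a gene's probe sets and leaving out each array. The labels do not say whether replicate numbers pair the samples, and the main fit did not pair them. Same-numbered CSF3 and Ctrl arrays had deviations from their group means that correlated at 0.015 to 0.026, against -0.034 to 0.0080 for the other combinations.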

Additional observations from a re-analysis of the deposited data

How the results depend on the processing

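The rises of RELB and NFKB2 and the falls of both dimmer RELA probe sets kept their direction and passed the limma test in all 13 settings without a minimum size of change, as did both within-gene differences of RELA. RELB ranged from 0.30 to 0.59 and NFKB2 from 0.20 to 0.52. The mean of all 3 RELA probe sets fell (-0.44, limma adjusted p = 0.000304), opposite in sign to the brightest one, because the dimmer ones enter it. The calls of RELA 11745440_s_at and NFKB1 differed under quantile and cyclic loess scaling, as given above, so 3 of the 8 probe sets were higher and 2 lower there; the cause was not tested. A minimum change of 1 on the log2 scale left 0 of the 8 higher and 0 lower by limma, while 5 had an unadjusted p under 0.05. It left 231 probe sets higher and 2001 lower over the arrays, 117 and 611 genes, and 6 and 3 list genes. Without the 30% dimmest, 10326 probe sets were higher and 12492 lower, against 16513 and 12945 with them, and 4767 genes were higher and 4883 lower, against 8227 and 4921; the median change of probe sets was -0.04 against 0.10, and more were then lower than higher. Leaving out each array gave 2 to 3 members higher and 3 lower, 13259 to 15989 probe sets higher and 11610 to 12860 lower, 8281 to 10962 within-gene differences called, and -0.94 to -0.77 and -0.63 to -0.56 for the RELA differences. With the replicate block the members had 2 higher and 3 lower, with 16110 probe sets higher and 12651 lower over the arrays, and the block changed no other call of a member. Every array deviated most like the array of its own number in the other group. These correlations were at most 0.026 and were not tested, so they do not decide whether the numbers pair the samples.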
